A study of Mus musculus with 10 samples.

Results

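CC chemokines are small secreted proteins that draw leukocytes along a gradient by engaging G protein-coupled receptors, the CC receptors. Here 10 mouse genes of the family were followed, namely Ccl2, Ccl3, Ccl4, Ccl5, Ccl6, Ccl7, Ccl9, Ccl20, Ccl21a and Ccl28. They were chosen by gene symbol, each had 1 row in both expression tables, and they make up 10 of the 48897 rows of each table. RNA-seq was available for 10 libraries. Prostate epithelium sorted as EpCAM+ and CD45- from C57BL/6 mice aged 3 months gave 3 libraries whose genotype label carries no Arid1a deletion (the control, replicates A, B and C) and 3 labelled with Arid1aPC-/-. Both groups came from genetically engineered mice, so the control was not wild type, and per the study's methods Arid1a was deleted with a Cre driven by the Probasin promoter, which is active in prostate epithelial cells. Myc-CaP, a prostate cancer cell line of FVB origin that carries a Myc transgene, gave 2 libraries with an empty vector (Myc-CaP EV, replicates 1 and 2) and 2 labelled Myc-CaP Arid1a KO, made with a CRISPR lentivirus. The labels give the cell line as the source of this RNA, and the study's methods describe sequencing of the cells apart from that of tumours grown from them. Whether the knockout cells were 1 clone or a pool is not given in the sources used here. Arid1a is a DNA-binding subunit of the SWI/SNF chromatin remodelling complex, and the comparison in each table asked how its loss changes expression.

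As a check of the labels, Arid1a itself measured 25.4 ± 3.13 RPKM (reads per unit of gene length, relative to the library's mapped reads, given as mean ± SD with n = 3) in the control epithelium and 30.2 ± 1.23 RPKM (n = 3) in the libraries labelled Arid1a knockout. It was therefore not lower there (log2 fold change 0.25, adjusted p = 0.0540, limma), and these are called the labelled knockout libraries throughout. A summed gene value does not show whether part of the gene is deleted. The libraries also held transcripts of other cells, such as Ptprc below, so the value does not settle the label. The study also stained prostate sections for ARID1A protein, which was not examined here. In Myc-CaP cells Arid1a measured 60.7 TPM (counts scaled by gene length and then to 1 common sum per library) in the empty vector group against 39.9 TPM after knockout (log2 fold change -0.59, adjusted p = 0.0102). Whole reads could be recovered from the deposited values, and they summed to between 28.7 and 36.2 per epithelium library and between 18.4 and 20.7 per Myc-CaP library, in units of 1e+06 reads. Epithelial transcripts were present in the sorted cells. Epcam lay between 279 and 351 RPKM in the control and, lower, between 183 and 225 RPKM in the labelled knockout libraries. Ptprc, which encodes CD45, was present too, at 26.0 to 30.3 RPKM in the control and 56.2 to 58.1 RPKM in the labelled knockout libraries. In Myc-CaP cells Epcam was at 0 in both empty vector libraries and at most 0.128 TPM in the knockout, so this defining epithelial marker was absent or nearly so. Seminal vesicle transcripts also separated the epithelium groups: the summed level of 8 such genes lay between 19460 and 21980 RPKM in the control and between 647 and 1632 RPKM in the labelled knockout libraries. All 8 were called lower, beside 29.6% of all genes tested.

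As background, Ccl3, Ccl4 and Ccl5 are inflammatory ligands that draw monocytes, macrophages and T cells, and Ccl3 and Ccl5 act in part through Ccr1. Ccl6 and Ccl9 are rodent chemokines that act through Ccr1, while Ccl2 and Ccl7 draw Ccr2-bearing monocytes out of the blood. Ccl20 is the ligand of Ccr6, Ccl21a is a ligand of Ccr7 made by lymphatic endothelium and lymph node stroma, and Ccl28 is a mucosal epithelial chemokine that engages Ccr10 and Ccr3. Several of the inflammatory genes are textbook targets of the transcription factor NF-kB. In the mouse, 7 of the 10 genes lie on chromosome 11 in 2 groups (GRCm38): Ccl2 (82035571 to 82037453) and Ccl7 (82045712 to 82047525) lie side by side, and Ccl5 (83525778 to 83530518), Ccl9 (83572919 to 83578636), Ccl6 (83587882 to 83593087), Ccl3 (83647844 to 83649355) and Ccl4 (83662584 to 83664683) lie in that order. Ccl20 is on chromosome 1 (83116766 to 83119167), Ccl21a on chromosome 4 (42772860 to 42773993) and Ccl28 on chromosome 13 (119623819 to 119654359). All 10 are annotated as protein-coding.

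The upstream sequence of 6 of the 10 genes was found among the RefSeq promoters of GRCm38.p6, while Ccl2, Ccl4, Ccl5 and Ccl7 had no entry. The 250 bases before the RefSeq start of the 3 genes with the largest rises in the epithelium (Ccl3, Ccl6 and Ccl9) and of the 2 with the largest falls (Ccl20 and Ccl21a) are given 5′ to 3′ on the strand of the gene, so that the letters can be set beside the measured changes. Capitals mark matches on either strand to GGGNNNNNCC, a loose form of the NF-kB motif, and matches that overlap form 1 run. The Ccl3 sequence is chr11:83649379-83649628 and the Ccl6 sequence is chr11:83593088-83593337, both on the minus strand. The Ccl9 sequence is chr11:83578637-83578886 on the minus strand, the Ccl20 sequence is chr1:83116516-83116765 on the plus strand and the Ccl21a sequence is chr4:42773992-42774241 on the minus strand.

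Ccl3: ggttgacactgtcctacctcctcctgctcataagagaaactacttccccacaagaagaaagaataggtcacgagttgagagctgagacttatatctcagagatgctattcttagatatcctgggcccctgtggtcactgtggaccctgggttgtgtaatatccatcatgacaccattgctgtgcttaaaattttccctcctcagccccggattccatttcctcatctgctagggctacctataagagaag
Ccl6: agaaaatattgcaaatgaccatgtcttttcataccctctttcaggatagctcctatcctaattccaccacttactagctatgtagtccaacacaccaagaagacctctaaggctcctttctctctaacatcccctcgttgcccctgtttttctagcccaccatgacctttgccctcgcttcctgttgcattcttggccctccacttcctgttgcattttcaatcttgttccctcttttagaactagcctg
Ccl9: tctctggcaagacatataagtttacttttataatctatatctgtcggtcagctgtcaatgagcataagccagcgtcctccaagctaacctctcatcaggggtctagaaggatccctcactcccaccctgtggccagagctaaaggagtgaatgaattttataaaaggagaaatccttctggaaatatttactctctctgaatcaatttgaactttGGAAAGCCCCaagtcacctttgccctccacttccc
Ccl20: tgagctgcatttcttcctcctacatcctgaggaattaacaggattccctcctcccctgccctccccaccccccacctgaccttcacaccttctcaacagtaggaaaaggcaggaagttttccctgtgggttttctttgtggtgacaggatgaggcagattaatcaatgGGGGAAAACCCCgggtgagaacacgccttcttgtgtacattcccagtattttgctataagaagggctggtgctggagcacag
Ccl21a: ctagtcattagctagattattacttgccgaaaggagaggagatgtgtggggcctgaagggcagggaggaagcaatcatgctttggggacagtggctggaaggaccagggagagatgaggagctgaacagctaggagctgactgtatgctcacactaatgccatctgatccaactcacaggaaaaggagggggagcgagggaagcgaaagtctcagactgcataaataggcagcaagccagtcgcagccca

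Among the sequences shown, matches occurred in a gene that rose and in a gene that fell. A link between the letters and the changes was not tested. Of the 3 that rose, Ccl9 held 1 match, from 35 to 26 bases before the start, and Ccl3 and Ccl6 held 0. Of the 2 that fell, Ccl20 held 4 overlapping matches between 82 and 71 bases before the start and Ccl21a held 0. The Ccl20 matches form 1 run, and its bases from 81 to 72 matched on both strands and were counted on each. Ccl28, whose sequence is not shown, held 1 match, from 64 to 55 bases before the start. Among all 32851 RefSeq promoters searched over the same length, 45.8% held such a match, so a match is common, and it is a description of the letters and not of binding. The letters TATAAA were matched in Ccl9 among these 6 genes, and in 12.4% of all promoters.

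In the sorted epithelium the family split. Ccl3, Ccl4, Ccl6, Ccl7 and Ccl9 were higher in the labelled knockout libraries, Ccl5, Ccl20 and Ccl21a were lower, and Ccl2 did not pass the test. The largest rise was that of Ccl6 (3.12-fold between the mean RPKM values) and the largest fall that of Ccl21a (9.17-fold). Of the 10 genes, 9 had a mean of at least 0.5 RPKM and were tested, and 8 passed an adjusted p under 0.05 in limma, 5 higher and 3 lower. The background in this table was high: of all 16275 genes tested, 57.1% were called, 27.5% as higher and 29.6% as lower. Under the study's thresholds, an unadjusted p under 0.05 with at least a 1.5-fold change, 7 of the 9 passed against 24.8% of all genes, the gene lost being Ccl7. In 8 of the 9 the values of the groups did not overlap, as in 66.7% of all genes tested. The median log2 fold change of the 9 was 0.35, beside -0.03 over all genes.

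**Figure D1:**
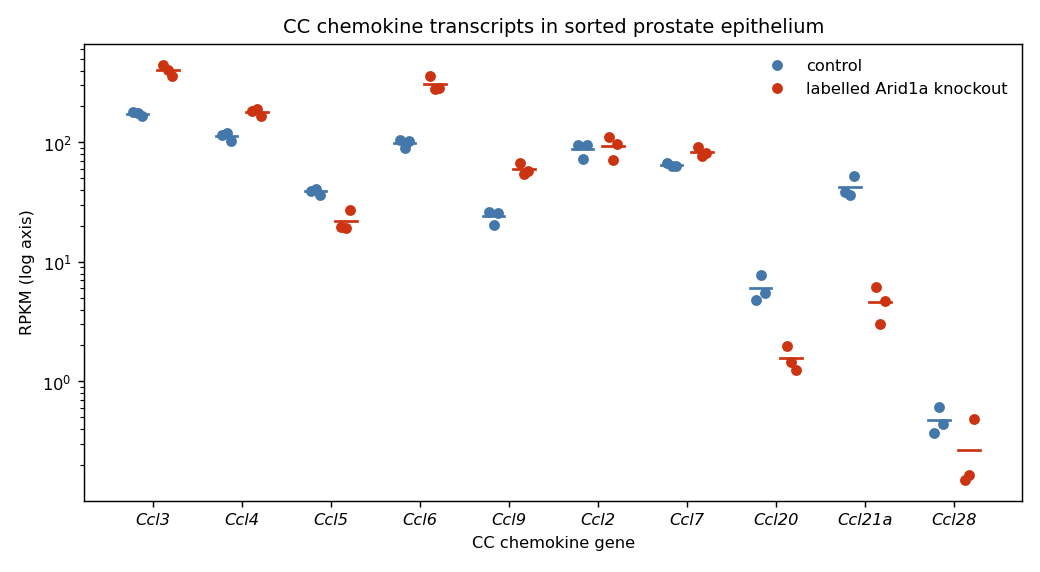
RPKM of the 10 CC chemokine genes on a log axis in the 3 control libraries (blue) and the 3 labelled Arid1a knockout libraries (red). Points are libraries and bars are group means. Ccl3, Ccl4, Ccl6, Ccl7 and Ccl9 lie higher in every red library, Ccl5, Ccl20 and Ccl21a lie lower in every red library, and Ccl2 and Ccl28 overlap.

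Ccl3, also known as macrophage inflammatory protein 1 alpha, was the most abundant of the 10 in both groups. In the control it measured 179.9 RPKM in library A, 175 in B and 167 in C, against 447, 406 and 359 RPKM in the labelled knockout libraries. The groups lay far apart, and even the lowest knockout library was above the highest control library. The mean rose 2.32-fold, from 174 ± 6.50 to 404 ± 44.0 RPKM (SD, n = 3 each), and the log2 fold change was 1.20 ± 0.094 (SE, adjusted p = 6.7e-05, limma).

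Ccl4, macrophage inflammatory protein 1 beta, is the close relative of Ccl3 and its neighbour on the chromosome. It measured 116, 119 and 103 RPKM in the control and 182, 192 and 168 RPKM in the labelled knockout libraries, without overlap. The mean rose 1.60-fold, and the log2 fold change of 0.67 ± 0.084 (SE, adjusted p = 4.66e-04) was smaller than that of Ccl3. The ratio of Ccl3 to Ccl4 RPKM was accordingly 1.55 ± 0.072 (SD, n = 3) in the control and 2.24 ± 0.194 in the labelled knockout libraries, with ranges of 1.47 to 1.62 and 2.11 to 2.46 that do not overlap.

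Ccl6, a Ccr1 ligand best known from macrophages and neutrophils of rodents, measured 105, 89.2 and 103 RPKM in the control and 362, 281 and 286 RPKM in the labelled knockout libraries. Every knockout library exceeded every control library by a wide margin, and knockout library A was the highest. The log2 fold change was 1.62 ± 0.117 (SE, adjusted p = 5.1e-05), the largest rise among the 10. The call rested on 4483 to 4650 reads per control library and 11808 to 15801 reads per knockout library, so counting error was small beside the spread between libraries.

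Ccl9, the neighbour of Ccl6 and likewise a rodent Ccr1 ligand, measured 26.4, 20.6 and 25.7 RPKM in the control and 66.9, 54.1 and 57.9 RPKM in the labelled knockout libraries. As for Ccl6, control library B was the lowest and knockout library A the highest. The mean rose 2.46-fold (log2 fold change 1.27 ± 0.115, SE, adjusted p = 1.2e-04).

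Ccl5, known as RANTES and made by activated T cells among others, went the other way although it lies in the same chromosome 11 group as Ccl3 and Ccl4. It measured 39.4, 41.0 and 36.5 RPKM in the control and 19.7, 19.2 and 27.5 RPKM in the labelled knockout libraries. All 3 knockout libraries lay below all 3 control libraries, with knockout library C closest to the control. The mean fell 1.76-fold and the log2 fold change was -0.81 ± 0.133 (SE, adjusted p = 0.00168). The RPKM ratio of Ccl3 to Ccl5 went from 4.47 ± 0.172 to 19.0 ± 5.17 (SD, n = 3 each).

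Of the ligands of Ccr2, Ccl7 rose slightly and Ccl2 did not pass the test. Ccl2, the main monocyte attractant, measured 94.3, 72.7 and 96.0 RPKM in the control and 110.5, 71.8 and 96.5 RPKM in the labelled knockout libraries. The groups overlapped over most of their range, and library B was the lowest of each. The log2 fold change of 0.07 ± 0.171 (SE) had an adjusted p of 0.736 and a 95% interval from -0.33 to 0.47, and the sign turned without control library B or without knockout library A (-0.06 in both).

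Ccl7, which shares Ccr2 with Ccl2, measured 67.5, 63.3 and 64.2 RPKM in the control and 92.1, 76.9 and 81.1 RPKM in the labelled knockout libraries. The groups did not overlap, but the step between them was small. The mean rose 1.28-fold, with a log2 fold change of 0.35 ± 0.079 (SE, adjusted p = 0.00704). When each library was rescaled to the same summed RPKM, the median log2 change over all genes shifted from -0.03 to 0.11 and that of Ccl7 became 0.53.

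Ccl21a and Ccl20 were lower. Ccl21a, which guides Ccr7-bearing dendritic cells and T cells, measured 38.8, 36.1 and 52.6 RPKM in the control and 6.13, 3.06 and 4.72 RPKM in the labelled knockout libraries. The highest knockout library lay far under the lowest control library. Reads fell from 998, 1138 and 1423 in the control to 162, 79 and 118. The log2 fold change was -2.97 ± 0.217 (SE, adjusted p = 5.4e-05), the largest change of any of the 10. Ccl21a has near-identical copies elsewhere in the genome, of which Ccl21b was at 0 reads in all 6 libraries, so how reads were shared among the copies is uncertain.

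Ccl20, which draws Ccr6-bearing lymphocytes and dendritic cells to epithelia, was far less abundant. It measured 4.80, 7.83 and 5.48 RPKM in the control and 1.97, 1.47 and 1.26 RPKM in the labelled knockout libraries, from 114, 228 and 137 reads against 48, 35 and 29. All knockout libraries were below all control libraries, among which B was the highest. The mean fell 3.86-fold and the log2 fold change was -1.44 ± 0.172 (SE, adjusted p = 3.83e-04). Because adding 1 before the log shrinks the change of low values, the recovered reads gave a larger fall, -1.94, with limma-voom, a test on reads added after seeing the data.

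Ccl28 stood at the limit of the table. It measured 0.372, 0.607 and 0.439 RPKM in the control and 0.150, 0.166 and 0.488 RPKM in the labelled knockout libraries, from 58, 116 and 72 reads against 24, 26 and 74. Knockout libraries A and B were low, but C was at the level of the control, so the groups overlapped. Its mean of under 0.5 RPKM kept it out of the main test. On recovered reads the log2 fold change was -1.03 with an adjusted p of 0.0420 when libraries were scaled by their totals, and the adjusted p was 0.0507 when they were scaled by the median ratio. With no filter on low values, the main test gave -0.22 (adjusted p = 0.235).

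**Figure D2:**
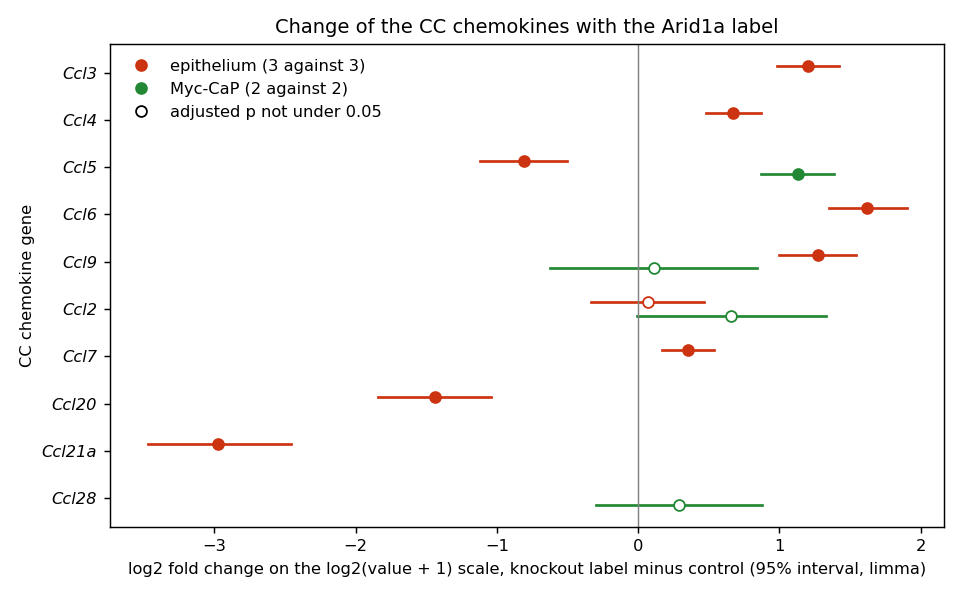
Log2 fold change of each tested CC chemokine with its 95% interval from limma, labelled knockout minus control on the log2(value + 1) scale, for the epithelium (red) and Myc-CaP cells (green), and open points mark an adjusted p that is not under 0.05. In the epithelium 5 genes lie to the right of 0 with their intervals, 3 lie to the left and Ccl2 spans 0, while Ccl5 lies on opposite sides of 0 in the 2 tables.

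The make-up of the family differed between the groups, given here without a test. Summed over the 10 genes, the level was 651 ± 23.9 RPKM (SD, n = 3, range 626 to 673) in the control and 1158 ± 113 RPKM (range 1082 to 1288) in the labelled knockout libraries. Together Ccl3, Ccl4, Ccl6 and Ccl9 made up 63.1% ± 1.85 of that sum in the control and 82.3% ± 1.97 in the labelled knockout libraries. The share of Ccl6 was 15.2% and 26.6%, that of Ccl3 26.8% and 34.9%, and that of Ccl4 17.4% and 15.7%, the last with overlapping ranges although its level rose. Ccl21a went from 6.52% to 0.396% and Ccl5 from 6.00% to 1.94%. Ccl2 held 13.4% of the sum in the control and 8.0% in the labelled knockout libraries at a level that did not pass the test. These shares depend on one another, since they add to the whole.

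**Figure D3:**
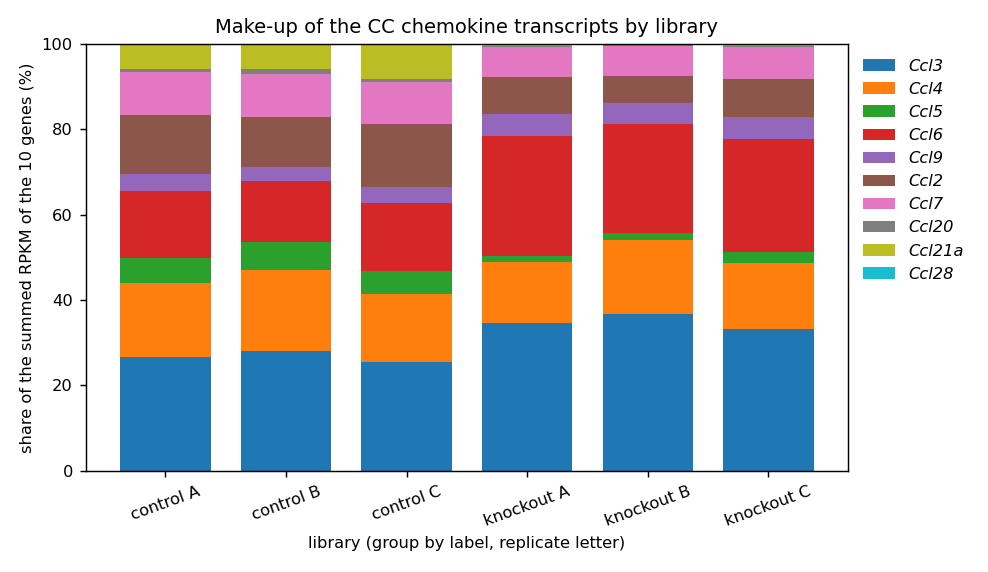
Share of the summed RPKM of the 10 genes taken by each gene, in percent, in the 3 control libraries and the 3 labelled knockout libraries. The Ccl6 band widens from 15.2% to 26.6% of the sum on average and the Ccl21a band narrows from 6.52% to 0.396%, and for both genes the ranges of the groups do not overlap.

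Transcripts of other cells moved between the same groups. The counts of called markers stand beside 27.5% of all genes tested called higher and 29.6% called lower. The summed level of 10 macrophage markers lay between 2418 and 2766 RPKM in the control and between 4571 and 5197 RPKM in the labelled knockout libraries, with 10 of 10 called higher. Of 7 general leukocyte markers, 6 were higher, Ptprc among them, and 1 lower, Cd52 (317 to 367 and 156 to 166 RPKM). For their sum the ranges were 849 to 871 RPKM and 1049 to 1146 RPKM. For 8 neutrophil markers they were 320 to 450 RPKM and 367 to 605 RPKM, which overlap, with 4 higher and 1 lower. B cell markers summed to 145 to 160 and 463 to 812 RPKM (5 of 7 higher), and mast cell markers to 191 to 220.2 and 34.7 to 62.6 RPKM (4 of 5 lower). Lymphatic endothelial markers summed to 43.7 to 57.7 and 56.7 to 68.2 RPKM, with 1 higher and 1 lower of 5. Most of that sum was Pdpn, the gene called higher (31.5 to 41.1 and 42.8 to 52.2 RPKM), while Mmrn1 was called lower (1.19 to 2.69 and 0.869 to 1.21 RPKM), Prox1 was not tested (0.475 to 0.602 and 0.248 to 0.472 RPKM), and Flt4 (2.83 to 3.64 and 2.52 to 2.99 RPKM) and Lyve1 (7.72 to 9.88 and 7.34 to 11.96 RPKM) were not called, these single markers being named after their values were seen. The remaining lists were dendritic cells (1255 to 1340 and 971 to 1084 RPKM, 1 higher and 1 lower of 7), T and NK cells (35.3 to 39.6 and 38.5 to 43.7 RPKM, 3 higher and 1 lower of 10), blood endothelium (37.1 to 49.7 and 47.5 to 60.6 RPKM, 1 higher of 6), fibroblasts (1690 to 2467 and 1409 to 1982 RPKM, 3 lower of 7) and epithelium (4312 to 5802 and 4604 to 5060 RPKM, 2 higher and 3 lower of 9). Most of the dendritic cell sum was H2-Ab1 (1213 to 1304 and 885.5 to 1002 RPKM), while Itgax was higher (22.2 to 25.3 and 66.5 to 71.7 RPKM). Most of the B cell sum was Ighm (114.5 to 129.8 and 418.8 to 731.4 RPKM). Most of the neutrophil sum was S100a8 (121 to 188 and 123 to 206 RPKM) and S100a9 (165 to 231 and 183 to 319 RPKM). Without overlap, Csf3r (22.0 to 23.6 and 41.8 to 54.7 RPKM), Cxcr2 (7.15 to 7.50 and 14.7 to 20.6 RPKM), Ly6g and Mmp8 lay higher. Camp lay lower (0.690 to 1.18 and 0.274 to 0.522 RPKM). Of the T and NK cell markers, Cd4 (3.52 to 3.67 and 6.48 to 8.11 RPKM), Trac (6.07 to 7.91 and 9.90 to 12.85 RPKM) and Cd3e (3.61 to 5.01 and 6.06 to 6.40 RPKM) lay higher. Nkg7 (6.02 to 7.35 and 2.26 to 2.93 RPKM) lay lower. The largest part of the epithelial sum was Krt19 (1913 to 2861 and 1346 to 1643 RPKM), which lay lower. Krt14 (122 to 180 and 722 to 918 RPKM) and Krt5 (262.4 to 345.5 and 711.5 to 849.5 RPKM) lay higher. These genes too were named after their values were seen. No marker of any list was at 0 in all 6 libraries. The part of these cells, or of the seminal vesicle transcripts, in the changes of Ccl3, Ccl4, Ccl5, Ccl6, Ccl7, Ccl9, Ccl20 and Ccl21a was not tested, and in bulk RNA fewer cells of a type and less RNA per cell cannot be told apart.

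Among the CC and atypical CC receptors tested, more were called higher than lower in the labelled knockout libraries. The list is wider than the receptors of the members and includes Ccr9, the receptor of Ccl25. Of 13 CC and atypical CC receptors, 10 were tested in the epithelium and 8 called (beside the 57.1% of all genes), 6 higher and 2 lower, and all 10 had groups that did not overlap (beside 66.7%). Their median log2 fold change was 0.70. Ccr1, which Ccl3, Ccl5, Ccl6 and Ccl9 engage, went from 17.1 ± 0.783 to 57.4 ± 6.06 RPKM (SD, n = 3 each; log2 fold change 1.68 ± 0.087 SE, adjusted p = 1.5e-05). This receptor is carried mainly by leukocytes. The part of the cell types listed above in the changes of the receptors was not tested.

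Ccr7, Ccr2, Ccr8 and Ccr9 were called higher as well. Ccr7, the receptor of Ccl21a, rose from 19.8 to 34.7 RPKM (log2 fold change 0.79, adjusted p = 5.73e-04) while Ccl21a fell, and Ccr2, the receptor of Ccl2 and Ccl7, rose from 15.5 to 24.1 RPKM (0.61, adjusted p = 0.00130). Ccr8 rose from 1.45 to 10.97 RPKM (2.31, adjusted p = 8.5e-05) and Ccr9, the receptor of Ccl25, from 0.456 to 3.10 RPKM (1.49, adjusted p = 4.7e-05). Ccr6, the receptor of Ccl20, was under the mean of 0.5 RPKM needed for the test, with 0.166 ± 0.024 RPKM in the control and 0.717 ± 0.157 RPKM in the labelled knockout libraries (SD, n = 3 each), as were Ccr4 and Ackr2. Without that filter Ccr6 was called higher (0.56, adjusted p = 0.00386), and likewise with limma-voom on the recovered reads (2.09, adjusted p = 1.82e-04), which also called Ccr4 higher (1.03, adjusted p = 0.0147) and did not call Ackr2 (-0.64, adjusted p = 0.120). Ccr10 and Ccr3, the receptors of Ccl28, were tested and not called (adjusted p = 0.313 and 0.118).

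The atypical receptors, which bind chemokines without the usual signal, went both ways. Ccrl2, which is induced in inflammation, rose from 162 to 286 RPKM (log2 fold change 0.81, adjusted p = 2.14e-04). Ackr1, the chemokine-binding receptor of venular endothelium and red cells, fell from 9.0 to 3.94 RPKM (-1.03, adjusted p = 4.52e-04), and Ackr4, which takes up Ccl21 and Ccl25, fell from 0.764 to 0.257 RPKM (-0.49, adjusted p = 0.00222).

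**Figure D4:**
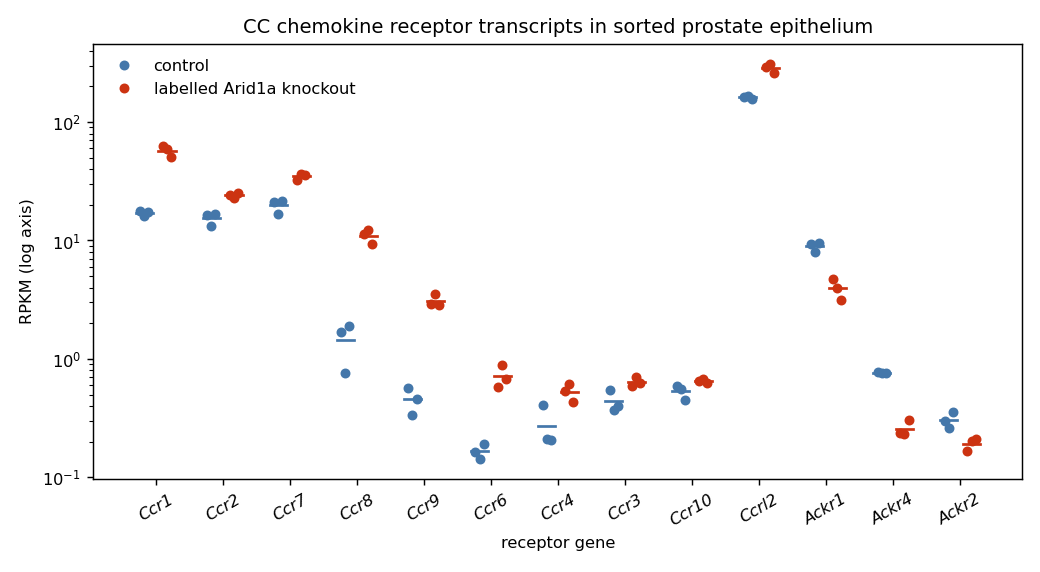
RPKM of 13 CC and atypical CC receptor genes on a log axis in the control (blue) and labelled knockout (red) epithelium libraries, with bars at the group means. Ccr1, Ccr2, Ccr7, Ccr8, Ccr9 and Ccrl2 are higher in all 3 red libraries, while Ackr1 and Ackr4 are lower in all 3. So are, on the higher side, Ccr3 and Ccr10, which were not called, and Ccr4 and Ccr6, which were not tested. Ackr2, also not tested, is lower in all 3.

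The rest of the CC ligand family went both ways in the epithelium. Of 14 further ligands 13 had a row, 9 were tested and 6 called, a share near the 57.1% of all genes called, with 2 higher (Ccl17 and Ccl24, beside 27.5% of all genes) and 4 lower (Ccl1, Ccl11, Ccl25 and Ccl27a, beside 29.6%) and a median log2 fold change of -0.10. Ccl11, the eosinophil attractant eotaxin, sits next to Ccl7 on chromosome 11 and fell from 8.45 to 3.46 RPKM (-1.09, adjusted p = 4.86e-04). Ccl1 (from 1.19 to 0.313 RPKM, -0.75, adjusted p = 0.00831) and Ccl27a, a skin chemokine (from 2.08 to 0.793 RPKM, -0.78, adjusted p = 0.00371), were low in both groups. Ccl17 rose from 2.87 to 6.19 RPKM (0.91, adjusted p = 0.00249). The calls of Ccl24 (0.31, adjusted p = 0.0449) and Ccl25 (-0.50, adjusted p = 0.0205) were the least stable, and held in 6 and 11 of the 15 alternatives run for each. Ccl8, Ccl12 and Ccl22 were not called. Summed over the whole family, the 10 chemokines followed here held 84.8% ± 1.27 of the CC ligand RPKM in the control and 91.1% ± 1.35 in the labelled knockout libraries (SD, n = 3 each).

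In Myc-CaP cells the family was nearly reduced to Ccl5. Ccl5 measured 48.9 and 49.95 TPM with the empty vector and 99.6 and 120 TPM in the knockout, from 228 and 205 reads against 438 and 485. Both knockout libraries were above both empty vector libraries. The mean rose 2.22-fold, with a log2 fold change of 1.13 ± 0.10 (SE, adjusted p = 0.0079, limma). With 1 library left out the call was lost without empty vector library 1 (adjusted p = 0.0965), without empty vector library 2 (0.0823) and without knockout library 2 (0.0614), fits in which the lone library of a group was assumed to vary like the others, while the log2 fold change stayed between 1.0 and 1.26 over all 14 alternatives.

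**Figure D5:**
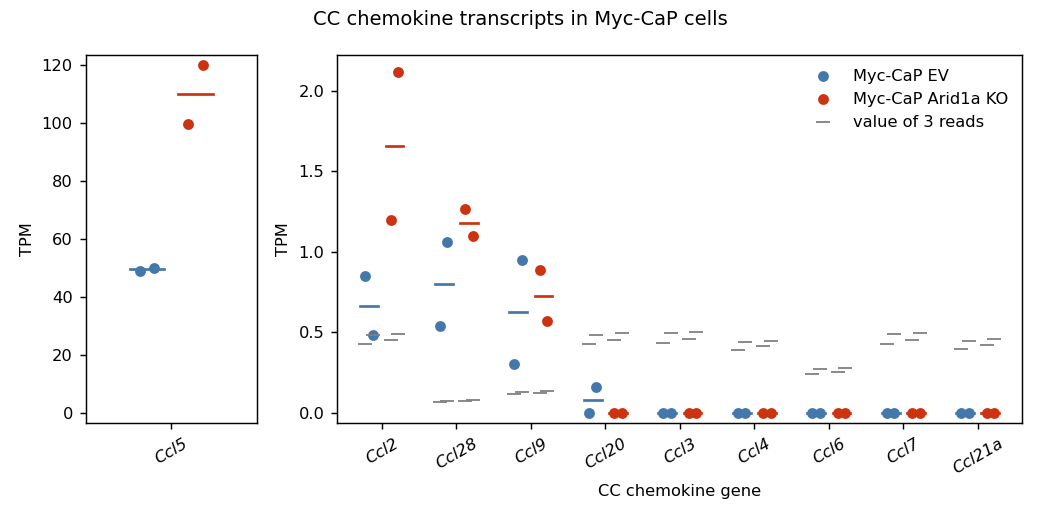
TPM of the 10 CC chemokine genes in the 2 empty vector (blue) and 2 knockout (red) Myc-CaP libraries, with Ccl5 on an axis of its own, bars at the group means and grey dashes at the level that 3 reads would give. Ccl5 is higher in both knockout libraries, Ccl2, Ccl9 and Ccl28 stay at or under 2.12 TPM, and 5 genes are at 0 in all 4 libraries.

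The other members were near or at the limit of detection. Ccl2 measured 0.849 and 0.483 TPM with the empty vector and 1.20 and 2.12 TPM in the knockout, which rests on 6, 3, 8 and 13 reads. The groups did not overlap, but the log2 fold change of 0.66 ± 0.260 (SE) had an adjusted p of 0.231. Ccl28 measured 0.541 and 1.06 TPM against 1.26 and 1.10 TPM (0.29 ± 0.228, adjusted p = 0.529), without overlap but with empty vector library 2 next to the knockout libraries.

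Ccl9 measured 0.303 and 0.948 TPM against 0.885 and 0.568 TPM, which overlap. Its log2 fold change was 0.11 ± 0.283 (SE, adjusted p = 0.871), and it turned to -0.18 without empty vector library 1 and to -0.02 without knockout library 1. Ccl20 had 1 read, in empty vector library 2. Ccl3, Ccl4, Ccl6, Ccl7 and Ccl21a had 0 reads in all 4 libraries, which for Ccl3 allows a level of up to 0.433 to 0.499 TPM per library and for Ccl6 up to 0.238 to 0.275 TPM, the value of 3 reads, a limit for counting error alone. Thus 4 of the 5 genes that rose in the epithelium gave no read in this line, and the other, Ccl9, was under 1 TPM.

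Of the 4 members tested in Myc-CaP cells, 1 was called, as higher, beside 6.43% of the 13974 genes tested (4.54% higher and 1.89% lower). The same 1 passed the study's thresholds, beside 6.28% of all genes, and 3 had groups that did not overlap, beside 51.5%. The median log2 fold change of the 4 was 0.48, against -0.01 over all genes. Summed over the 10 genes the empty vector libraries held 51.6 ± 1.46 TPM (SD, n = 2) and the knockout libraries 113 ± 14.6 TPM, of which Ccl5 was 95.8% and 96.8%. Of the other CC ligands, Ccl17, Ccl25 and Ccl27a were tested and 0 called by limma, with 0 at an unadjusted p under 0.05 and 0 with limma-voom. Among the receptors 1 was tested, Ccr8, whose level was 29.5 ± 11.1 TPM in empty vector libraries and 34.9 ± 4.03 TPM in knockout libraries (adjusted p = 0.599).

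Leukocyte transcripts were nearly absent from this line. Ptprc did not exceed 0.0441 TPM, and 7 general leukocyte markers together gave 4.64 to 5.52 TPM with the empty vector and 4.05 to 4.06 TPM in the knockout, most of it Cd52. In all, 6 of 8 neutrophil markers and 7 of 10 T and NK cell markers were at 0 in all 4 libraries. The 10 macrophage markers together gave 10.3 to 13.3 TPM with the empty vector and 8.33 to 12.4 TPM in the knockout. Most of that sum was Cd14 (9.40 to 10.2 and 6.70 to 9.66 TPM). Each list for neutrophils, dendritic cells, T and NK cells, B cells, mast cells, blood and lymphatic endothelium and seminal vesicle summed to at most 0.435 TPM in any library, and fibroblast markers summed to 7.11 to 37.4 TPM and 5.91 to 16.6 TPM. The epithelial markers of the line did differ between its groups: their sum was 1.75 to 2.10 TPM with the empty vector and 45.7 to 51.7 TPM in the knockout, with Krt8, a luminal keratin, at 0.790 to 1.07 and 38.8 to 40.3 TPM. Their part in the rise of Ccl5 was not tested.

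Ccl5 was thus lower in the labelled knockout epithelium (-0.81) and higher in the knockout Myc-CaP cells (1.13). The tables carry different units and were normalized apart, so the difference between these changes was not tested. The systems share no control library. Besides Ccl5, Ccl2 and Ccl9 were tested in both, and neither was called in Myc-CaP cells.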

How the data were processed

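Groups were taken from the genotype labels. Per the study's methods, the authors aligned strand-specific paired-end reads to GRCm38 with TopHat2 and counted genes with HTSeq-count, while the submitters' processing notes name HISAT2, HTSeq and DESeq2. The authors deposited the epithelium as RPKM and Myc-CaP as TPM. The gene lengths used are not given in the sources used here.

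In each table the genes whose mean reached 0.5 entered a test on log2(value + 1) with limma 3.58.1 (lmFit, eBayes with trend, R 4.3.3), two-sided, with Benjamini-Hochberg adjustment over all genes tested and calls at an adjusted p under 0.05. Fold changes are on that scale, which understates low genes. The study used DEGseq on counts. An exact permutation test of 3 libraries against 3 reaches no p under 0.1. The labels do not say that replicates are separate animals or cultures. For the epithelium the study's methods give mice with n = 3, but they do not tie each library to 1 animal. The p-values therefore measure the spread between these libraries.

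Whole reads were recovered as multiples of the value of 1 read (tolerance 0.0005 reads) for 99.99% of tested epithelium genes and 99.73% of tested Myc-CaP genes, with common factors settled by requiring equal gene lengths in both tables. They are estimates, and intervals and limits from them cover counting error only. limma-voom on these reads (mean of at least 10 reads) was added after seeing the data. It called 10694 of 19321 genes in the epithelium and 1606 of 13087 in Myc-CaP. The steps were tested on simulated data.

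All 10 members are named. Of the other ligands and the receptors, the called genes and those a sentence must account for are named. Some single genes and alleles are not reported here, nor counted in the lists. The members, lists and tests were chosen with earlier results of these data known. Same-letter epithelium libraries did not deviate together (r = 0.041, 0.009 and -0.057), and the letters were not treated as pairs. Positions are from GENCODE M21, promoters from RefSeq.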

Additional observations from a re-analysis of the deposited data

Results flagged for a closer look

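Ccl5 had opposite signs in the 2 systems. Its log2 fold change was -0.81 in the epithelium, where all 3 labelled knockout libraries were below all 3 control libraries, and 1.13 in Myc-CaP cells, where both knockout libraries were above both empty vector libraries. The difference was not tested, since the tables were normalized separately.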

How the results depend on the processing

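The 8 epithelium calls kept their direction and stayed under an adjusted p of 0.05 in every alternative in which the gene was tested (15 for Ccl20, 16 for the other 7), with the highest adjusted p for Ccl7 (0.0275). Leaving out 1 library gave epithelium Ccl2 log2 fold changes from -0.06 (without control B, and without labelled knockout A) to 0.24, and Myc-CaP Ccl9 from -0.18 to 0.40 with -0.02 without knockout 1, none of them called. The count of Myc-CaP members called ranged from 0 to 1 with 1 library left out. The cause of these changes was not tested. With a table mean of at least 5, the other CC ligands called in the epithelium went from 6 to 1, since only 4 were then tested. With libraries rescaled to the same sum, the summed members of the control moved from 651 to 614.3 RPKM, and of all epithelium calls 64.6% were higher, against 48.1% as deposited, while the 8 member calls stayed 5 higher and 3 lower.

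The replicate number as a block gave 8 members called in the epithelium and 1 in Myc-CaP, counts of 6 and 0 for the other ligands and of 8 and 0 for the receptors. In Myc-CaP libraries of the same number correlated at r = 0.195. With 2 libraries per group this is 1 value, since both same-number pairs must give it, and the pairs share only a number. The block took the genes called from 899 to 2771. With voom 1606 were called. With 1 Myc-CaP library left out, 47 to 76 genes were called in all, without a filter 358, and with eBayes without trend 451. In the epithelium not every library deviated most like its own letter. Depth limits Ccl2, Ccl9 and Ccl20 in Myc-CaP, which had at most 22 reads per library.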
